A study of Homo sapiens with 10 samples.

Results

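The nuclear genes for subunits of the oxidative phosphorylation machinery were represented by 78 of the 13808 gene rows in a table of RNA-seq expression values from human embryonic stem cells. They were taken by name: symbols that begin with NDUFA, NDUFB, NDUFC, NDUFS or NDUFV and a digit, with UQCR, with COX and a digit from 4 to 8, or with ATP5. By the complex that each protein belongs to, 37 are subunits of complex I, 9 of complex III, 13 of complex IV and 19 of complex V. NDUFA4, which was first named as a complex I protein, was counted with complex IV. The names also take in ATP5IF1, an inhibitor of ATP synthase, and 2 read-through genes, NDUFC2-KCTD14 and ATP5MF-PTCD1, whose transcripts join a subunit gene to its neighbour. All 78 are protein-coding genes of the same symbol in GENCODE release 29. The table held 0 rows for the subunits encoded in the mitochondrial genome, so only the nuclear side of the complexes was measured.

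The cells were H1, an established human embryonic stem cell line, labelled wild type in all groups and grown in mTeSR1 medium on Matrigel. In every group, the control included, the cells received a short hairpin RNA (shRNA) by virus and were selected with puromycin. The hairpins targeted SMARCA4 (an ATPase of the BAF chromatin remodeller), MAFK (a small Maf transcription factor), E2F6 (a repressive E2F factor) or KDM1A (a histone demethylase), and the control hairpin, shLUC, targeted luciferase, which human cells do not have. Each of the 5 groups had 2 libraries, 10 in all, described as biological duplicates with no word on whether they came from separate infections, so a p-value here measures the spread between these libraries. How many hairpins were used per target is not given in the sources used here.

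Values are normalized tag counts, whole numbers from a normalization that gave all 10 libraries the same median of 594 and totals between 22836548 and 22855295. Read depth is therefore unknown. SMARCA4 was at 12.7% of its shLUC mean in the shSMARCA4 libraries, KDM1A at 42.1% in shKDM1A and E2F6 at 61.3% in shE2F6. Each had both libraries below both controls, as did 25.4% of all rows in shSMARCA4, 20.9% in shKDM1A and 20.4% in shE2F6. The log2 change of E2F6 in shE2F6 was -0.70, and 0 rows of the table, E2F6 included, passed the adjusted limma test there. MAFK was at 82 and 216 in the libraries labelled shMAFK against 212 and 288 in shLUC, so the second of these overlapped the controls, and a direction drawn from this group rests on its label. All 17 markers of undifferentiated pluripotent cells were in the table, with sums of 206490 and 186655 in shSMARCA4 and 211078 to 319587 elsewhere. Their median log2 change in shSMARCA4 was -0.21, with 11 below 0 and 6 above, where 50.3% of all gene rows were below 0. Of the 14 mesendoderm markers 5 were in the table, and their sum was 8167 and 1344 in the shSMARCA4 libraries against 16 to 125 in the other 8. Of the 9 stromal markers 5 were in the table, with sums of 5820 and 6953 in shSMARCA4 and 13765 to 28049 elsewhere. Trophoblast markers, 2 of 10 in the table, summed to 80 and 86 in shSMARCA4 and to 172 to 439 elsewhere, and neural markers, 4 of 10, to 1834 to 6499 over all libraries. The part of these markers in the shSMARCA4 results was not tested.

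The respiratory chain passes electrons from NADH through complex I, and from succinate through complex II, to complex III, cytochrome c and complex IV, where oxygen is reduced. The proton gradient made on the way drives ATP synthase, complex V. Most of the subunits are encoded in the nucleus, translated in the cytosol and imported, while a few core subunits come from mitochondrial DNA. Pluripotent stem cells are known for a high rate of glycolysis, with respiration rising as they differentiate.

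Subunit c of ATP synthase forms the membrane ring that turns as protons pass. It is made from 3 nuclear genes, ATP5MC1 (ENSG00000159199) on chromosome 17 (positions 48892765 to 48895871, plus strand), ATP5MC2 on chromosome 12 (53632726 to 53677408, minus strand) and ATP5MC3 on chromosome 2 (175176258 to 175184607, minus strand), all on GRCh38. They are shown because ATP5MC1 was the 1 subunit gene that passed a test among the knockdowns, and because their products end in the same protein. The last 228 coding bases of a GENCODE release 29 transcript of each, 75 codons and the stop, are printed 5′ to 3′ with capitals at the 53 positions where the 3 are not all equal.
ATP5MC1: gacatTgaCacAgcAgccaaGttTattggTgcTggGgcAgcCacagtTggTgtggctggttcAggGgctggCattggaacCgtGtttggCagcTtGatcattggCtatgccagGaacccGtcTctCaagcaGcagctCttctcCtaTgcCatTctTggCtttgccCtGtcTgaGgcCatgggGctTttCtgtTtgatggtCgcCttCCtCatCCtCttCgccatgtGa
ATP5MC2: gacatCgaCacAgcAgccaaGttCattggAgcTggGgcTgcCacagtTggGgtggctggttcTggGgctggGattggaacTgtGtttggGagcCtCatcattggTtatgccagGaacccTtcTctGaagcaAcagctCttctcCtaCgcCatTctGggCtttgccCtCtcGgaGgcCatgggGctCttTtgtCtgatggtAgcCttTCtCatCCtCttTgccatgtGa
ATP5MC3: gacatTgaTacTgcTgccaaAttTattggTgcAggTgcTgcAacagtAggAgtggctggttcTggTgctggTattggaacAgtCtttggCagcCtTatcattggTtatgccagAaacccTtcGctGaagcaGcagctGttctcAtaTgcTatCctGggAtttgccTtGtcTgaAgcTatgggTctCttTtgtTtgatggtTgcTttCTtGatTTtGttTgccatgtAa
All 75 codons translated to the same amino acid in the 3 genes. ATP5MC1 and ATP5MC2 shared 89.0% of these bases, and ATP5MC3 shared 81.1% with each of them. The longest run of equal bases between any pair was 17, so the 3 transcripts differ along this stretch although the protein does not. ATP5MC1 has 7 annotated pseudogenes named after it, ATP5MC2 has 3 and ATP5MC3 has 0, and how reads shared with such copies were counted is not stated.

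The subunit genes were short and well expressed. Their median transcript length was 749.5 bases against 2571.25 for all gene rows, and the median of their means over the 10 libraries was 1560.5 against 608.15. Per kilobase of transcript the median was 1628 for the subunit genes and 229 for all gene rows. The median per kilobase was 3052 for complex IV, 2608 for complex V, 1459 for complex III and 1291 for complex I. ATP5F1B, the catalytic beta subunit of the F1 head, led on both scales, with a mean of 18571.8 and 10099 per kilobase. ATP5F1A, the alpha subunit beside it, had a mean of 16359.5 and 7785 per kilobase. COX7C, a small complex IV subunit, followed with 6407.3 and 9621 per kilobase. The lowest means were 45.4 for COX6B2, the testis isoform of COX6B1, 126.0 for UQCRHL, an intronless copy of UQCRH, and 324.8 for NDUFB3, a complex I accessory subunit.

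In none of the 4 comparisons with shLUC did a subunit gene pass the test. The count was 0 of 78 at an adjusted p of 0.05 (limma, Benjamini-Hochberg over all 14785 rows) for each knockdown, where 4.18% of all rows passed in shSMARCA4, 0.0135% did so for shMAFK, 0% for shE2F6 and 0.0271% for shKDM1A. The smallest adjusted p of a subunit gene (limma) was 0.296 for UQCRB in shSMARCA4, 0.53 for ATP5F1A in shMAFK, 0.755 for ATP5MC1 in shE2F6 and 0.375 for NDUFA5 in shKDM1A. At an unadjusted limma p of 0.05 the count was 1 of 78 in shSMARCA4, where 16.3% of all rows reached it, and 1 of 78 in shMAFK, where 8.77% did. It was 4 of 78 for E2F6 against 5.09% of rows, and 9 of 78, which is 11.5%, for KDM1A against 11.5% of rows. The 95% interval of the change lay within a 2-fold change either way for 60 subunit genes after SMARCA4 knockdown (73.3% of all rows), 63 after MAFK knockdown (79.7%), 57 for E2F6 (82.1%) and 50 for KDM1A (73.9%). For the remaining genes these libraries leave a 2-fold change within the interval. These counts and intervals come from a fit whose spread is shared by all 5 groups, and the shKDM1A replicates differed most. In a fit without both shKDM1A libraries the unadjusted count was 8 of 78 in shSMARCA4, 9 in shMAFK and 8 in shE2F6. The adjusted count stayed at 0 in each, where 1162, 34 and 5 of the 14785 rows passed in the same order. The share of all rows at the unadjusted p was not taken there. The higher unadjusted counts can therefore not be read as particular to the subunit genes.

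Small differences leaned downward in every knockdown. The median log2 change of the 78 genes was -0.13 (shSMARCA4), -0.13 (shMAFK), -0.16 (shE2F6) and -0.15 (shKDM1A), which is 91.2%, 91.7%, 89.6% and 90.0% of the shLUC level. Over all gene rows the median changes were -0.0018, -0.0093, -0.0095 and -0.024. Below 0 were 59, 64, 54 and 58 of the subunit genes in the same order, where 49%, 50.9%, 50.7% and 52.1% of all rows were. These medians are descriptions with no test, and the 4 comparisons share the same 2 control libraries, so a high control value lowers all of them at once. The first shLUC library had the highest value of the 10 for 22 subunit genes, which is 28.2% of them against 6.07% of all gene rows, and the second for 4. In these bulk samples, fewer cells with a high level and less RNA per cell cannot be told apart.

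**Figure D1:**
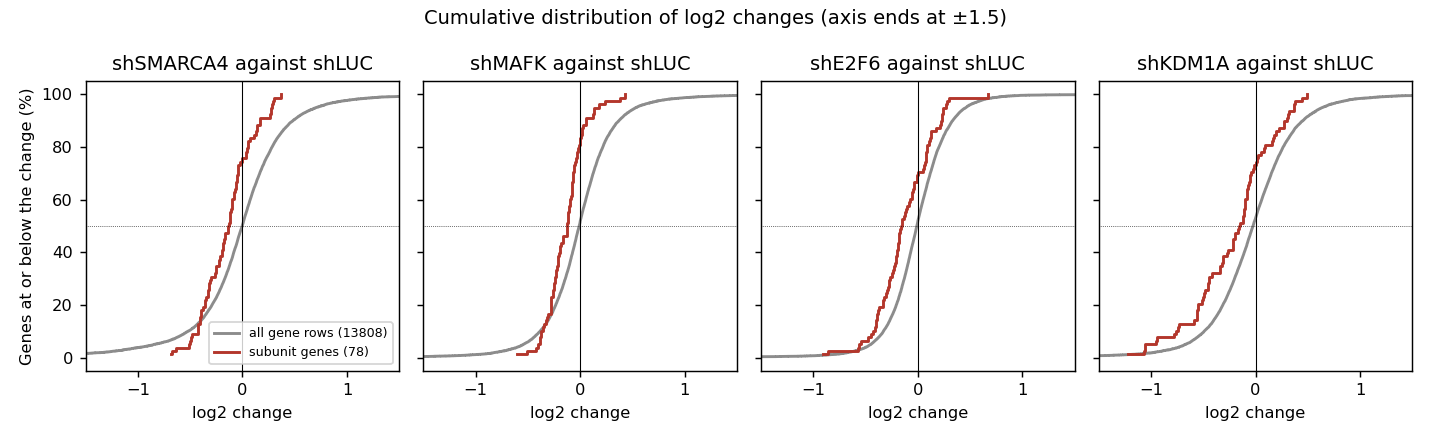
Cumulative share of genes (vertical axis, percent) at or below a given log2 change from shLUC (horizontal axis), for each knockdown, with the 78 subunit genes in red and all 13808 gene rows in grey. The red curves cross 50% to the left of the grey ones in all 4 panels, at medians of -0.13, -0.13, -0.16 and -0.15.

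By library, the median difference of the subunit genes from the shLUC mean was -0.18 and -0.18 in the shSMARCA4 libraries on the log2 scale. The shMAFK libraries were at -0.12 and -0.17, those of shE2F6 at -0.11 and -0.15, and those of shKDM1A at -0.17 and -0.10. The 2 shLUC libraries lay at 0.04 and -0.04, above all 8 knockdown libraries. As a share of the library's total value, the 78 genes made up 0.821% and 0.777% in shLUC, and between 0.683% and 0.752% in the knockdown libraries.
Among the complexes, complex V had median log2 changes of -0.22, -0.21, -0.16 and -0.22 for the SMARCA4, MAFK, E2F6 and KDM1A hairpins. Complex III stood at -0.26, -0.16, -0.23 and -0.099, complex IV at -0.16, -0.056, -0.27 and -0.11, and complex I at -0.10, -0.12, -0.13 and -0.15, in the same order. Whether the complexes differ from each other was not tested.

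**Figure D2:**
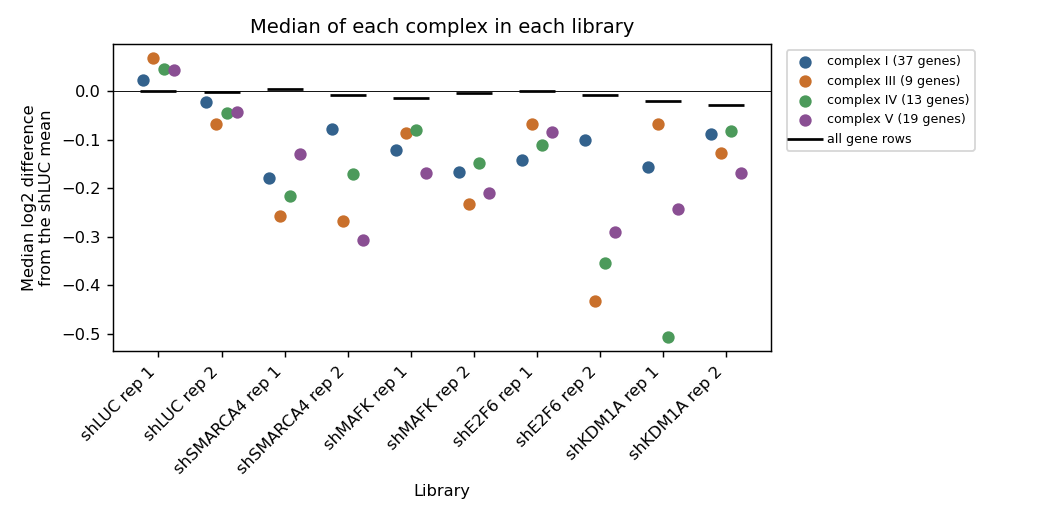
Median log2 difference from the shLUC mean (vertical axis) of the genes of each complex in each of the 10 libraries (horizontal axis), with a black bar for the median of all gene rows. The complex medians of the 8 knockdown libraries are all below 0 and below the black bars.

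Subunit genes with both libraries of a knockdown on the same side of both controls were mostly below them. Both shSMARCA4 libraries were below both shLUC libraries for 33 of 78 subunit genes (25.4% of all rows) and above for 6 (25.6% of rows). For shMAFK the counts were 37 below (25.3%) and 4 above (23.8%). For shE2F6 they were 27 below (20.4%) and 4 above (20.3%), and for shKDM1A 28 below (20.9%) and 4 above (17.9%).
In 8 genes every knockdown library was below both controls, which held for 1.86% of all rows, and in 1 gene, the read-through ATP5MF-PTCD1, every one was above (2.06% of rows). The 8 genes, chosen here after their values were seen, were NDUFB3, NDUFA10, NDUFV2, UQCRB, ATP5MPL, ATP5PB, ATP5PF and ATP5PO. ATP5PB, ATP5PF and ATP5PO are, with ATP5PD, proteins of the peripheral stalk that holds the F1 head still against the turning ring.

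**Figure D3:**
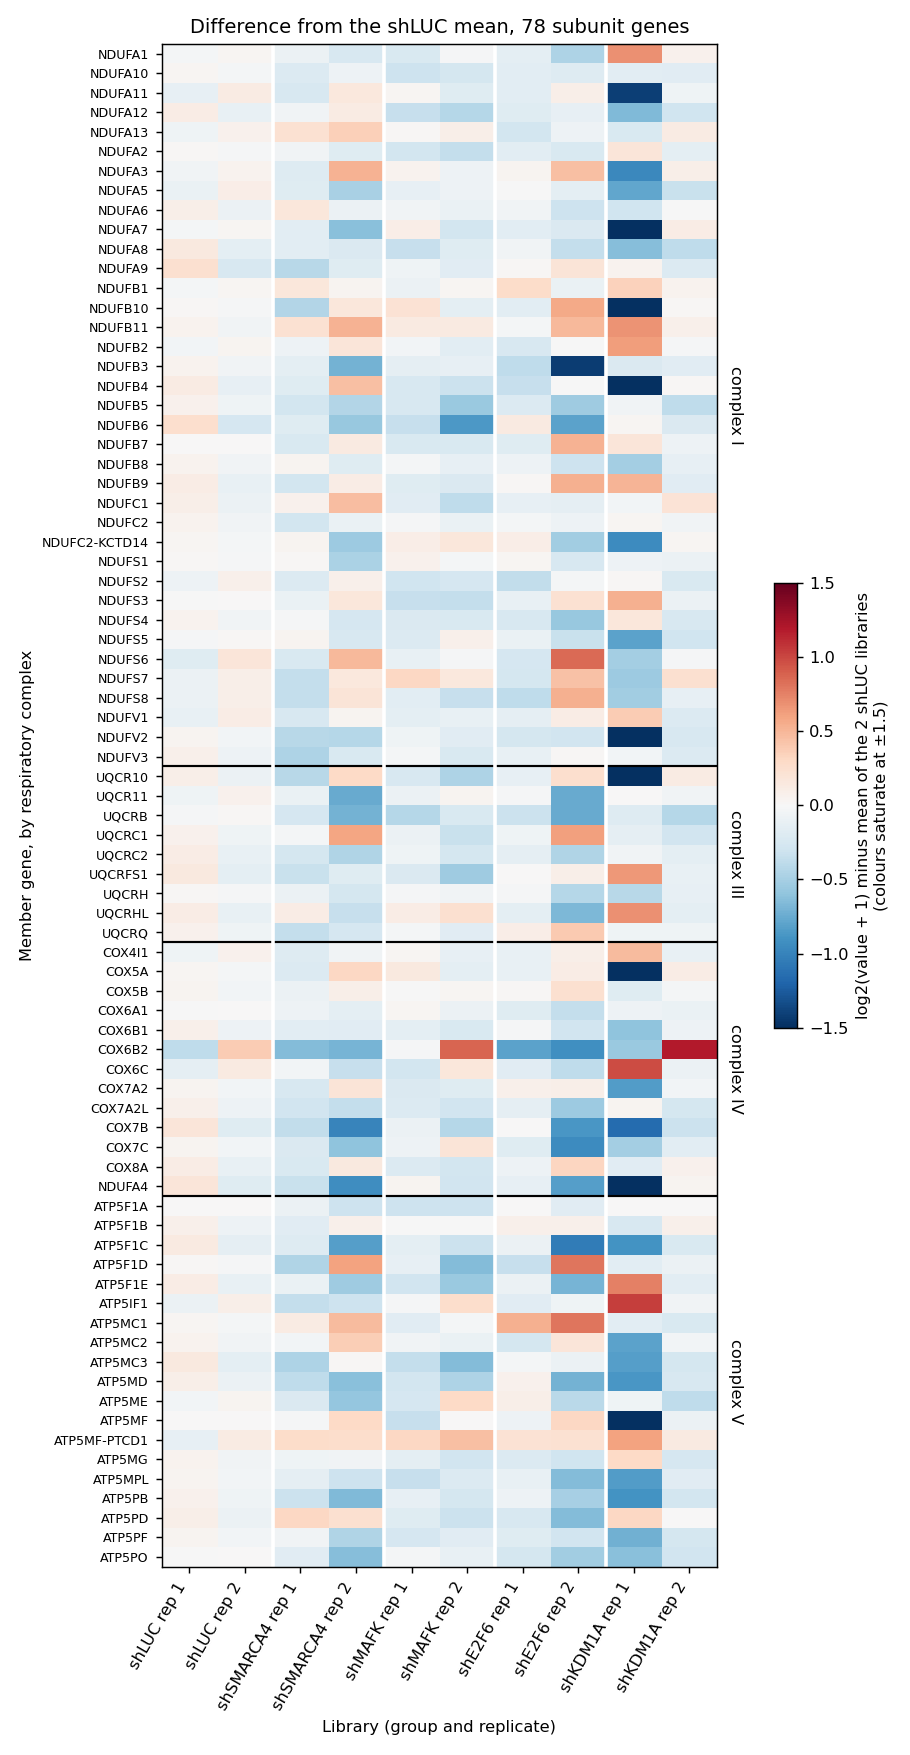
Difference of each of the 78 genes (rows, grouped by complex) from its mean in the 2 shLUC libraries, as log2(value + 1), in each library (columns), blue for lower and red for higher, with colours saturated at 1.5 either way. The first shKDM1A library and the second libraries of shSMARCA4 and shE2F6 stand out by deep colours in both directions.

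Complex I takes electrons from NADH. NDUFV2, a core iron-sulfur subunit next to the site where NADH is oxidised, had values of 1797 and 1709 (shLUC), 1315 and 1300 (shSMARCA4), 1674 and 1558 (shMAFK), 1461 and 1436 (shE2F6) and 560 and 1483 (shKDM1A). All 8 knockdown libraries were below the controls, with the first shKDM1A library far below its partner. The log2 change in shKDM1A was -0.94 (SE 0.36, limma adjusted p 0.406), and in shSMARCA4, where the libraries differed by little, it was -0.42 (SE 0.36, adjusted p 0.657).
NDUFS1, the largest core subunit, was at 2530 and 2450 (shLUC), 2520 and 1796 (shSMARCA4), 2594 and 2430 (shMAFK), 2544 and 2112 (shE2F6) and 2354 and 2346 (shKDM1A). Only the second libraries of shSMARCA4 and shE2F6 were well below the controls among the first 3 knockdowns. The complex I gene with the largest fitted difference in shE2F6 was NDUFB3, at 408 and 382 in shLUC and 303 and 146 in shE2F6. It was at 356 and 242 in shSMARCA4, 360 and 362 in shMAFK, and 339 and 350 in shKDM1A. The groups did not overlap with shLUC, and the shE2F6 change of -0.90 (95% interval -1.60 to -0.20, limma adjusted p 0.897) came mostly from its second library.
NDUFA10, an accessory subunit of the proton-pumping arm, was at 1650 and 1591 in shLUC and at 1311 to 1534 in the 8 knockdown libraries, a narrow range below the controls. Its shares of the shLUC mean were 90.7%, 82.2%, 88.5% and 89.3% in shSMARCA4, shMAFK, shE2F6 and shKDM1A. In shMAFK it differed from shLUC by -0.28 on the log2 scale, with an SE of 0.14 (limma adjusted p 0.625).
NDUFB6, an accessory subunit of the membrane arm, had the lowest log2 change of the subunit genes in shMAFK, -0.60 (SE 0.33, limma adjusted p 0.679). It was at 743 and 520 there against 1126 and 792 in shLUC. NDUFB11 was higher than the controls in shSMARCA4 (1936 and 2381 against 1718 and 1600), which is 0.37 on the log2 scale with an SE of 0.24 (limma adjusted p 0.517). NDUFA13, also known as GRIM-19, was at 3652 and 4004 in shSMARCA4 against 2982 and 3276, which is 0.29 on the log2 scale with an SE of 0.17 (limma adjusted p 0.456). Both were above the controls in each shSMARCA4 library, by less than the test requires.
NDUFS7, a core subunit, was at 1330 and 1203 in shMAFK against 1010 and 1142 (log2 change 0.24). NDUFS6, a zinc-binding accessory subunit, was at 938 and 2016 in shE2F6 against 989 and 1268, so its log2 change of 0.30 is the mean of 1 library below and 1 far above the controls. NDUFA1 was at 909 and 587 in shKDM1A against 551 and 575 (log2 change 0.38).

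Complex III hands electrons from ubiquinol to cytochrome c. UQCRB, its ubiquinone-binding subunit, was at 3190 and 3290 (shLUC), 2712 and 1983 (shSMARCA4), 2412 and 2758 (shMAFK), 2586 and 1922 (shE2F6) and 2842 and 2404 (shKDM1A). All 8 knockdown libraries were below the controls. The log2 change was -0.48 in shSMARCA4 (SE 0.21, unadjusted p 0.0465, limma adjusted p 0.296) and -0.54 in shE2F6 (unadjusted p 0.0298, limma adjusted p 0.939).
UQCRC1, a core protein, was at 5172 and 4704 in shLUC. It was at 4852 and 7440 in shSMARCA4 and at 4704 and 7576 in shE2F6, where its log2 change was 0.28 (limma adjusted p 1). In both of these groups the second library alone was above the controls.
UQCRQ, a small subunit, was at 901 and 820 (shLUC), 670 and 720 (shSMARCA4), 842 and 761 (shMAFK), 918 and 1130 (shE2F6) and 820 and 821 (shKDM1A). It was lowest in shSMARCA4 and highest in shE2F6, and the limma F-test among the 4 knockdowns gave an unadjusted p of 0.0416 and an adjusted p of 0.192.

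Complex IV reduces oxygen. Of the subunits with isoform pairs, the table held COX4I1, COX6A1, COX6B1 and COX6B2, COX7A2 and COX7A2L, COX8A and NDUFA4. COX4I1 ranged from 3226 to 5108 over the 10 libraries, COX6A1 from 2768 to 3622, COX6B1 from 1269 to 2046, COX7A2 from 1082 to 2216, COX7A2L from 1458 to 2240 and COX8A from 1734 to 2638. The testis isoform COX6B2 was at 23 to 103, a 4.48-fold range. Its fitted log2 changes of -0.67 in shSMARCA4, 0.43 in shMAFK and -0.86 in shE2F6 rest on values of at most 103 and have an SE of 0.63.
COX7B, a small subunit encoded on the X chromosome, had the lowest log2 change of the subunit genes in shSMARCA4. It was at 1349 and 1046 (shLUC), 918 and 599 (shSMARCA4), 1115 and 880 (shMAFK), 1192 and 650 (shE2F6) and 534 and 948 (shKDM1A). Both shSMARCA4 and both shKDM1A libraries were below the controls, with log2 changes of -0.68 (SE 0.36, limma adjusted p 0.42) and -0.74 (limma adjusted p 0.453).
NDUFA4, a subunit of complex IV despite its name, was at 6408 and 4958 (shLUC), 4486 and 2952 (shSMARCA4), 5788 and 4612 (shMAFK), 5172 and 3190 (shE2F6) and 1246 and 5788 (shKDM1A). The 2 shKDM1A libraries lay on opposite sides of most of the others. COX6C, with 17 pseudogenes named after it the most of any subunit gene, was at 2794 and 1338 in shKDM1A against 1293 and 1564 in shLUC (log2 change 0.44).

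ATP synthase held the 1 subunit gene that differed among the knockdowns. The limma F-test of equal means in the 4 knockdown groups, which takes only the spread from shLUC, called 1 of the 78 genes, ATP5MC1, at an adjusted p of 0.0444 (6.64% of all rows were called). At an unadjusted p of 0.05 it reached 3 of the 78, ATP5MC1, ATP5PD and UQCRQ, where 23.6% of rows did.
ATP5MC1, whose coding end is printed above, was at 1044 and 996 (shLUC), 1108 and 1418 (shSMARCA4), 907 and 996 (shMAFK), 1473 and 1780 (shE2F6) and 912 and 870 (shKDM1A). Both shE2F6 libraries were above all the others, both shSMARCA4 libraries were above the controls, and both shKDM1A libraries were below them. The mean in shE2F6 was 1626.5 ± 217 (SD, n = 2) against 1020 ± 33.9 in shLUC, a log2 change of 0.67 (SE 0.17, 95% interval 0.27 to 1.06). Against shLUC that change had an unadjusted p of 0.00391 and a limma adjusted p of 0.755.
The call in the F-test did not hold with every library. Its limma adjusted p was above 0.05 without either library of shLUC, shSMARCA4, shMAFK or shE2F6, and highest, 0.182, without the second shE2F6 library. It was 0.0369 without the first and 0.0188 without the second shKDM1A library.
The other genes for the same protein did not show this order. ATP5MC2 was at 3928 and 3673 (shLUC), 3698 and 4906 (shSMARCA4), 3673 and 3550 (shMAFK), 3168 and 4309 (shE2F6) and 2178 and 3698 (shKDM1A). ATP5MC3 was at 4646 and 3820, 3060 and 4261, 3276 and 2677, 4132 and 3966, and 2374 and 3506 in the same groups. In shE2F6 their log2 changes were -0.040 for ATP5MC2 (95% interval -0.63 to 0.55) and -0.058 for ATP5MC3 (-0.59 to 0.48), and whether ATP5MC1 differed from them was not tested. ATP5MC3 was below both controls in shMAFK (log2 change -0.51, SE 0.24, limma adjusted p 0.599) and in shKDM1A (-0.55, SE 0.24, limma adjusted p 0.428). Per kilobase of transcript the means over all libraries were 4532 for ATP5MC2 and 4242 for ATP5MC3.

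**Figure D4:**
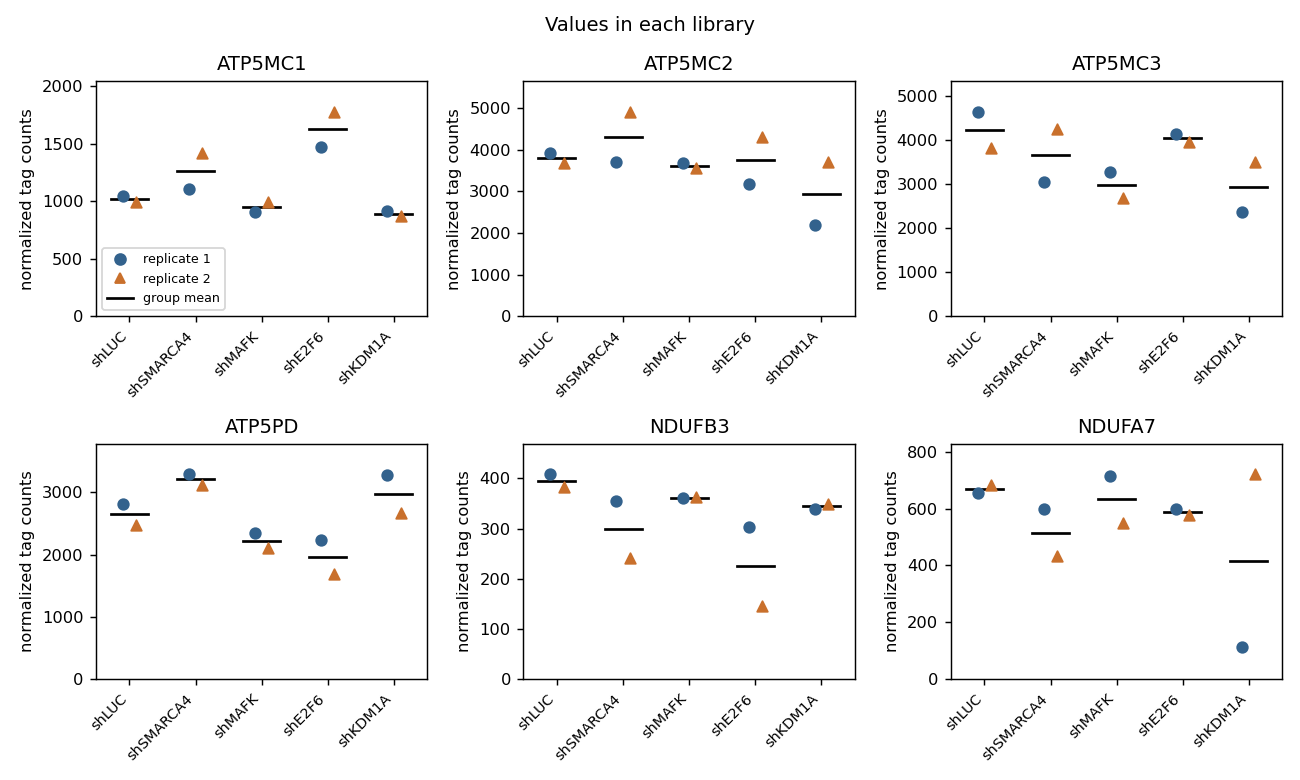
Normalized tag counts (vertical axes, from 0) of 6 subunit genes in the 5 groups (horizontal axes), with a circle for replicate 1, a triangle for replicate 2 and a bar for the group mean. ATP5MC1 is highest in shE2F6, at 1473 and 1780, ATP5PD lowest there, at 2231 and 1686, and NDUFA7 is split between 114 and 720 in shKDM1A.

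The peripheral stalk gene ATP5PD was at 2818 and 2483 (shLUC), 3289 and 3126 (shSMARCA4), 2340 and 2112 (shMAFK), 2231 and 1686 (shE2F6) and 3276 and 2664 (shKDM1A). Both shSMARCA4 libraries were above the controls and both libraries of shMAFK and of shE2F6 were below them. The F-test among the knockdowns gave an unadjusted p of 0.0109 and a limma adjusted p of 0.0949. Its partners were lower in all 4 knockdowns. ATP5PB was at 3330 and 3025 (shLUC), 2544 and 2011 (shSMARCA4), 2922 and 2639 (shMAFK), 3007 and 2249 (shE2F6) and 1704 and 2618 (shKDM1A). ATP5PO, the oligomycin sensitivity-conferring protein, was at 3820 and 3850 in shLUC and between 2462 and 3755 in the knockdown libraries. ATP5PF was at 1152 and 1084 in shLUC and between 675 and 1078 in them. These 3 partners are among the genes named above after their values were seen. In shKDM1A ATP5PB differed by -0.59 on the log2 scale with an SE of 0.24 (limma adjusted p 0.407), and its first library was well below its second.
The F1 head showed no common direction. ATP5F1A was at 17675 in 5 of the 10 libraries, both of shLUC among them, and at 14279 in both shMAFK libraries, and ATP5F1B was at 19692 in 5. Such repeated values come from the few steps that the normalization leaves at the top of its scale, so an SD of 0 between replicates of these genes is not a measure of their spread. The shMAFK change of ATP5F1A was -0.31, with an unadjusted p of 0.0359 and a limma adjusted p of 0.53.
ATP5F1C, the gamma subunit of the central stalk, was at 3429 and 2850 in shLUC and 2934 and 1513 in shE2F6 (log2 change -0.57, SE 0.35). ATP5F1D, the delta subunit, was at 1879 and 1828 (shLUC), 1353 and 2808 (shSMARCA4), 1708 and 1176 (shMAFK), 1464 and 3227 (shE2F6) and 1662 and 1744 (shKDM1A). In shSMARCA4 and in shE2F6 its first library was below and its second above the controls. ATP5F1E, the epsilon subunit, was at 1264 and 1044 in shMAFK against 1656 and 1428 (log2 change -0.42).
The read-through ATP5MF-PTCD1, the 1 gene above the controls in all 8 knockdown libraries, was at 409 and 482 in shLUC and between 486 and 676 in them. Its log2 change in shMAFK was 0.38. ATP5MF itself was at 1936 in both shLUC libraries and at 472 and 1828 in shKDM1A. Reads of the 2 cannot be assigned with certainty where their exons overlap.
ATP5IF1, which blocks ATP synthase from running backwards and so from consuming ATP, was at 1306 and 1487 (shLUC), 1087 and 1126 (shSMARCA4), 1374 and 1668 (shMAFK), 1240 and 1338 (shE2F6) and 2870 and 1343 (shKDM1A). Both shSMARCA4 libraries were below the controls, which is -0.33 on the log2 scale with an SE of 0.30 (limma adjusted p 0.684). The shKDM1A change of 0.49 (SE 0.30, limma adjusted p 0.513) came from its first library alone.

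The 2 shKDM1A libraries differed from each other more than those of any other group. The SD between replicates over the 78 genes was 0.59 on the log2 scale, against 0.14 (shLUC), 0.28 (shSMARCA4), 0.16 (shMAFK) and 0.33 (shE2F6), and over all gene rows it was 0.54 in shKDM1A. Between them 13 subunit genes, 16.7%, differed at least 2-fold, as did 11.1% of all gene rows. The first shKDM1A library held the lowest of the 10 values for 30 subunit genes and the highest for 16, where it did so for 26.1% and 24.4% of all gene rows.
Mean log2 changes of at least 1 in size were seen in 4 subunit genes, all in shKDM1A, where 3.26% of all rows reached that size (5.76% in shSMARCA4, 2.28% in shMAFK and 1.09% in shE2F6), and all from that 1 library. NDUFA7, a complex I accessory subunit, was at 114 and 720 in shKDM1A against 654 and 682 in shLUC, a log2 change of -1.22 (95% interval -2.68 to 0.25, limma adjusted p 0.479). ATP5MF was at 472 and 1828, NDUFA4 at 1246 and 5788, and NDUFB4 at 552 and 2462 against 2650 and 2223 in shLUC. In each of the 4 the second library was within or near the range of the controls.
When the second shKDM1A library was left out, limma called 28 subunit genes in shKDM1A, 6 of them higher, and 3235 of the 14785 rows. That comparison takes its spread from the other groups and rests on 1 library. Without the first one it called 0, as it did with both.

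The replicates of shSMARCA4 and shE2F6 split in the same genes. Across the 78 genes the difference between the second and the first library in shSMARCA4 correlated with that in shE2F6 at Pearson's r = 0.89 (Spearman's rho 0.89), and 71 of the 78 had the same sign. Over all gene rows r was 0.34 (Spearman's rho 0.53) and 68.9% had the same sign. Pearson's r was 0.73 over the 670 gene rows with a transcript under 1000 bases and a mean of at least 500. It was 0.69 over 5290 rows with a transcript of at least 2000 bases and the same mean. These are descriptions across genes, which share libraries and are not independent replicates.
ATP5F1D differed by 1.05 in shSMARCA4 and 1.14 in shE2F6, and NDUFB3 by -0.56 and -1.05. The difference followed the GC content of the transcript in the subunit genes, with r = 0.56 in shSMARCA4 and 0.66 in shE2F6, against 0.45 in shLUC, 0.051 in shMAFK and 0.099 in shKDM1A. Over all gene rows the same correlations were 0.094 in shSMARCA4 and 0.036 in shE2F6. Sets closer in transcript length had higher ones: 0.39 and 0.51 in the 78 mitochondrial ribosomal protein genes and 0.32 and 0.38 in the 83 cytosolic ones. They were 0.30 and 0.41 in 670 rows with a transcript under 1000 bases and a mean of at least 500.
Split by GC content into 3 groups of 26, the subunit genes with the lowest GC had median differences from the shLUC mean of -0.45 in the second shSMARCA4 library and -0.51 in the second shE2F6 library. Those with the highest GC were at 0.16 and 0.20 in the same libraries. In the first libraries of these groups the lowest GC group was at -0.20 and -0.13, and the highest at -0.17 and -0.12. So the first libraries were lower across the range of GC content, while the second ones were lower among the AT-rich subunit genes and higher among the GC-rich. The part of GC content in the gene-level results was not tested. With the GC content and length trends removed, 0 subunit genes passed in the comparisons with shLUC, and the ATP5MC1 F-test adjusted p (limma) was 0.0619 against 0.0444 without that step.

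**Figure D5:**
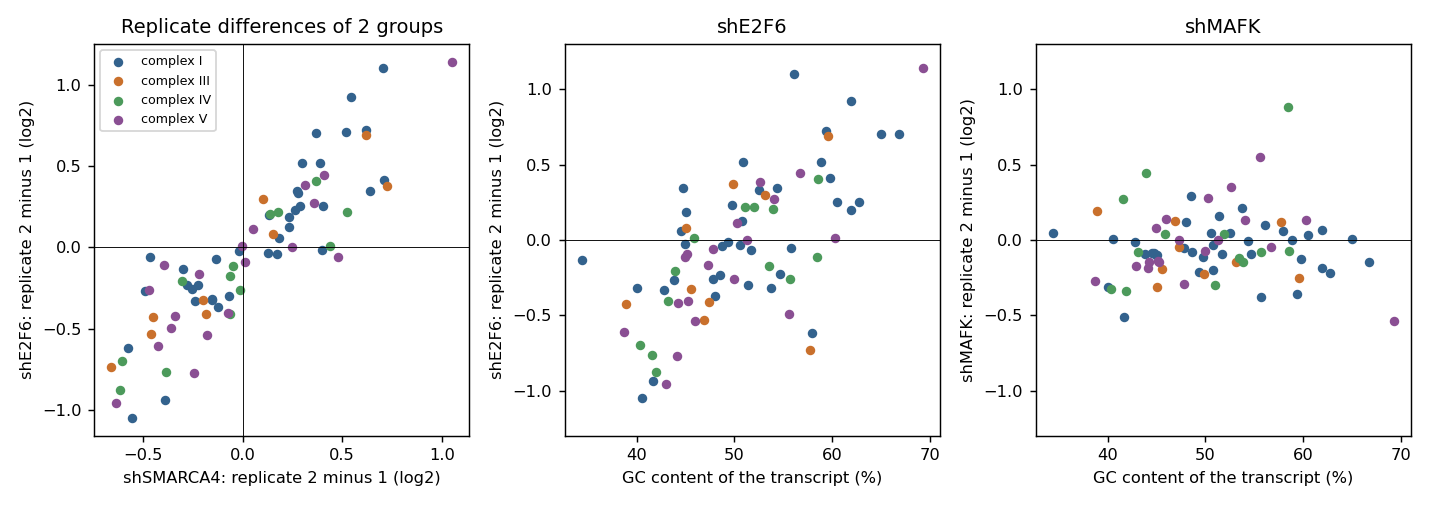
Left, the difference between replicate 2 and replicate 1 (log2) of each of the 78 genes in shE2F6 (vertical) against that in shSMARCA4 (horizontal). Middle and right, the difference in shE2F6 and in shMAFK (vertical) against the GC content of the transcript in percent (horizontal), with r = 0.66 and 0.051.

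A further fit left out the first shKDM1A library and the second ones of shSMARCA4 and shE2F6, a choice made after seeing the data. In it 65, 64, 60 and 58 of the 78 genes were below 0 in shSMARCA4, shMAFK, shE2F6 and shKDM1A. The medians over all gene rows were 0.0050, -0.0093, -0.00025 and -0.028, and the share of all rows below 0 was not taken. Each group that lost a library rests on 1 library, so these counts are descriptions. Under this choice 0 passed the test in each comparison and 0 in the F-test.

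The promoters of these genes are known to carry sites for NRF1, GABP and YY1, factors that bind many genes for mitochondrial proteins. RefSeq promoters on GRCh38.p14, from 250 bases before to 50 after the annotated start, matched 62 of the 78 genes by symbol. The NRF1 motif GCGCATGC was in 11 of these 62, 17.7%, against 5.47% of the promoters of 10488 genes in the table and 3.27% of all 27305. In 3 of the 62, ATP5F1C, NDUFA8 and NDUFB4, the motif stood on both strands 2 bases apart, a longer form found in 4.84% of the subunit promoters and in 2.29% of those of table genes. The shorter form was adopted after the matches of the longer one had been seen, so its shares are descriptions and not a test. The 8 others with the motif were ATP5MC2, ATP5ME, ATP5PF, COX5B, COX6A1, NDUFA6, NDUFS6 and NDUFS7. Stretches from a pair of them are shown, with the motif in capitals, as examples of the longer and the shorter form. That of NDUFB4 is chr3:120596152-120596211 on the plus strand, 184 to 125 bases before the start, and that of ATP5PF is chr21:25735140-25735199 on the minus strand, 145 to 86 bases before the start.
NDUFB4: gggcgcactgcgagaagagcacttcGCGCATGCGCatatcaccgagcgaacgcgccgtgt
ATP5PF: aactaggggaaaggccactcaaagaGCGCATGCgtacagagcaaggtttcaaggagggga
Motifs were searched on both strands. The GABP motif CCGGAAGT was in 12.9% and 8.7%, and the E2F motif TTTCCCGC in 4.84% and 2.64%. The YY1 motif AAGATGGC was in 16.1%, 10 of 62, against 5.37%, and in 8 of the 10 it lay 10 to 38 bases after the start. Of the peripheral stalk genes, ATP5PB, ATP5PF and ATP5PO had the YY1 motif in their windows and ATP5PD had the GABP motif. The other genes with the YY1 motif were NDUFA3, NDUFA6, NDUFA7, NDUFA9, NDUFS4, NDUFS7 and UQCRC1. Of the other genes below the controls in every knockdown library, NDUFB3, NDUFA10 and NDUFV2 lacked it, and UQCRB and ATP5MPL had no matched promoter. Whether the motif goes with the changes was not tested. A match is a description of letters and not evidence of binding.

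Other genes of the pathway were read from lists. The complex II genes, CYCS and CYC1, all 6 in the table, had 0 members past the test in each comparison (limma adjusted p). Their median log2 changes were -0.18 (shSMARCA4), -0.028 (shMAFK), -0.092 (shE2F6) and -0.24 (shKDM1A). CYC1, cytochrome c1, is a complex III subunit that the name rule leaves out. CYCS, cytochrome c, was at 3901 and 4309 in shLUC and at 1744 and 3474 in shKDM1A. All 49 assembly factors were in the table, with 0 past the test and medians of -0.17, -0.043, -0.037 and -0.021 in that order of groups.
The nuclear regulators of respiratory genes, 22 of 23 in the table, had medians of 0.07, 0.09, 0.02 and 0.04 and 0 past the test. NRF1 was at 628 and 483 in shLUC and between 474 and 741 in the knockdown libraries. GABPA was at 1105 and 1140 against 982 to 1327. TFAM, which packages and transcribes mitochondrial DNA, was at 1640 and 1690 in shLUC and 2170 and 1908 in shSMARCA4.
Among 20 genes of the mitochondrial stress response, 1 rose and 0 fell in shMAFK and 0 passed in the other groups (limma), where 0.0135% of all rows were called in shMAFK and 4.18% in shSMARCA4. It was ATF5, a transcription factor of that response, at 1530 and 1454 in shMAFK against 74 and 116 in shLUC, which is 3.99 on the log2 scale with an SE of 0.33 (limma adjusted p 0.00928). The call was lost in 3 of 23 alternatives, each leaving out 1 shLUC or shMAFK library, with an adjusted p of up to 0.22. Median log2 changes of this list were -0.18, 0.30, -0.10 and 0.31 in the 4 groups. The mitochondrial chaperone HSPD1 was at 30768 in both shLUC and both shMAFK libraries.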

How the data were processed

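Expression was measured by RNA-seq (NEB Next Ultra libraries, Illumina NovaSeq, RNA integrity number of at least 8.0) in 10 libraries. The deposited values are whole numbers that the authors had normalized and are treated as a score, normalized tag counts; their equal medians and totals show a normalization close to quantile normalization, whose method is not given in the sources used here. The submitters' processing notes name STAR, STARsolo and hg38, with no role or order. Groups and replicate numbers come from sample titles. Values were analysed as log2(value + 1), on which a fold change of a low gene is understated. The filter, a row mean of 10 or more, left out 0 of 14785, and all 78 subunit genes stayed in. limma 3.58.1 in R 4.3.3 (lmFit, eBayes with trend, two-sided) fitted 1 mean per group to all 10 libraries with 5 residual degrees of freedom. Each knockdown was compared with shLUC, and the 4 knockdowns with each other by the moderated F-test, at a threshold of 0.05 after Benjamini-Hochberg adjustment across all rows. The fit was tested on simulated data with independent normal noise and, for each row, the same SD in all groups. That setting leaves out the wider spread of shKDM1A and the correlated replicate differences of shSMARCA4 and shE2F6. Lengths, GC content and coding ends are from GENCODE release 29 (GRCh38), promoters from RefSeq (GRCh38.p14); the shorter NRF1 motif was adopted after the matches of its longer form had been seen. Tables and plots used Python 3.11.15, pandas 2.3.3 and matplotlib 3.10.9.

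The subunit genes, the gene lists, the tests and the alternatives were chosen with earlier results of these data known. Named genes were those past the threshold in any comparison or the F-test, the 3 highest and 3 lowest log2 changes in each knockdown, the 3 highest and 3 lowest means, isoform families, ATP5IF1, the targeted genes and list members past the threshold; others are named for their role or as stated. Groups share replicate numbers. Over all rows the correlations of replicate differences between groups ran from -0.050 to 0.337, with 2 of 10 over 0.1. The numbers were therefore not taken as pairs in the main fit. Over rows with a transcript of at least 2000 bases and a mean of at least 500 the correlations ran from -0.090 to 0.69. The highest was that of shSMARCA4 with shE2F6. Next were shLUC with shMAFK at 0.36, shLUC with shE2F6 at 0.28 and shMAFK with shE2F6 at 0.24, and the rest were at most 0.13. Over the 78 subunit genes the correlations ran from -0.20 to 0.89, with shLUC and shMAFK at 0.57. The main fit models none of these, so a factor shared by libraries of the same number is not excluded. Of the subunit genes, 42 have pseudogenes named after them and 34 overlap another gene of the table, and how shared reads were counted is not stated. Alternatives covered the pseudocount, the filter, rescaling, the spread model, which groups were fitted, the replicate block, GC and length trends, and each library left out.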

Additional observations from a re-analysis of the deposited data

Results flagged for a closer look

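ATP5MC1 differed among the 4 knockdowns in the limma F-test, with an adjusted p of 0.0444 over all 14785 rows. It was 1 of the 78 subunit genes called, where 6.64% of all rows were. It was at 1473 and 1780 in shE2F6 and 1108 and 1418 in shSMARCA4, and at 907 and 996 in shMAFK and 912 and 870 in shKDM1A. The call was lost in 11 of the 21 alternatives run.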

How the results depend on the processing

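The count of subunit genes past the threshold was 0 in shSMARCA4, shMAFK and shE2F6 under all alternatives run. With libraries left out in turn it was 0 to 28 in shKDM1A, with 28 only without the second shKDM1A library, and 0 elsewhere in that comparison. In the F-test it was 0 to 23 with libraries left out, 23 again without the second shKDM1A library. It was 0 with eBayes without trend, 0 with GC and length trends removed and 0 without the 3 libraries left out together. With the replicate block it was 2, ATP5MC1 and ATP5PD, and the block left 0 in each comparison with shLUC; no other count changed. The ATP5MC1 F-test adjusted p (limma) was 0.0545 without trend and 0.0619 with GC and length trends removed. Member medians kept their sign, from -0.18 to -0.12 in shSMARCA4, -0.17 to -0.11 in shMAFK, -0.16 to -0.11 in shE2F6 and -0.21 to -0.10 in shKDM1A with libraries left out.
Log2 changes of some named genes changed sign with 1 library left out, the cause being not tested. In shSMARCA4 ATP5MC2 ranged from -0.039 to 0.37 and ATP5MC3 from -0.46 to 0.016. In shMAFK COX6B2 ranged from -0.014 to 0.87 and ATP5IF1 from -0.020 to 0.26. In shE2F6 UQCRC1 ranged from -0.068 to 0.62, NDUFS6 from -0.26 to 0.85, ATP5MC2 from -0.26 to 0.18 and ATP5MC3 from -0.20 to 0.084. In shKDM1A NDUFA7 ranged from -2.54 to 0.11, NDUFA4 from -2.18 to 0.038, COX6C from -0.088 to 0.97 and ATP5IF1 from -0.053 to 1.04. Without the 3 libraries together the values were -0.039 for ATP5MC2 in shSMARCA4, -0.068 for UQCRC1 and -0.26 for NDUFS6 and ATP5MC2 in shE2F6, and 0.11 for NDUFA7, 0.038 for NDUFA4, -0.088 for COX6C and -0.053 for ATP5IF1 in shKDM1A. The F-test was not run in fits of 2 groups or without both shKDM1A libraries, and with a mean of at least 200 COX6B2 has no value. Depth is unknown, so no counting error is given.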

Other observations

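Ribosomal protein genes, which are also short and well expressed, had 0 members past the test in any comparison with shLUC (limma). Mitochondrial ribosomal proteins, 78 in the table, had median log2 changes of -0.16 (shSMARCA4), -0.093 (shMAFK), -0.094 (shE2F6) and -0.18 (shKDM1A), with 64, 59, 50 and 55 of them below 0. Cytosolic ribosomal proteins, 83 in the table, had medians of -0.099, 0, -0.20 and -0.19, with 54, 44, 67 and 52 below 0.

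Of 21 glycolysis genes, 1 rose and 0 fell in shSMARCA4 and 0 passed in the other groups (limma), where 4.18% of all rows were called in shSMARCA4. It was PDK1, a kinase that holds pyruvate back from mitochondrial oxidation, at 2302 and 2147 in shSMARCA4 against 1118 and 1071 in shLUC, which is 1.02 on the log2 scale with an SE of 0.16 (limma adjusted p 0.011). The PDK1 call was lost in 4 of 23 alternatives, those without 1 shLUC or shSMARCA4 library, with an adjusted p of up to 0.114. In shMAFK the median of the list was -0.30 with 19 of 21 below 0, and in shSMARCA4 it was 0.19 with 13 above 0. Among the marker lists, MIXL1 rose in shSMARCA4 (log2 change 4.79, limma adjusted p 0.0365), and KRT7 (-2.77, adjusted p 0.00463), COL1A1 (-2.70, adjusted p 0.0177), PDGFRB (-1.79, adjusted p 0.00304) and THY1 (-1.56, adjusted p 0.013) fell there, with 0 markers past the test in the other groups. The MIXL1 change was 2.91 without shSMARCA4 replicate 1 and 6.67 without replicate 2, and its call was lost in 8 of 23 alternatives, with a limma adjusted p of up to 0.227. The calls of THY1, COL1A1 and KRT7 were lost in 4, 3 and 1 of 23.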
